A study of Mus musculus with 2 samples.

Results

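Claudins, keratins and uroplakins are 3 families of structural proteins by which epithelia are recognised. All genes on the array named *Cldn*, *Krt* or *Upk* followed by a plain number (for uroplakins, class 1 to 3 with its letter) were taken as members, whatever their values, except *Cldn5*. This gave 75 genes with 93 probes, of 29924 gene names in all, namely 22 claudins, 26 type I keratins, 22 type II keratins and 5 uroplakins. Names that end in a further letter, such as *Krt6a* or *Krt33b*, were not taken.

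The arrays compared ureters of wildtype NMRI mouse embryos, explanted at E11.5 and kept for 18 h in serum-free medium. The medium contained either 10 µM IWP-2, an inhibitor of the acyltransferase PORCN and thereby of WNT secretion, or its solvent DMSO alone. There were 2 two-colour arrays, and each carried the RNA of 1 IWP-2-treated and 1 control pool, so that a value per group has n = 2. On array 1 the treated pool was labelled with AlexaFluor647 and on array 2 with AlexaFluor555. Each pool held ureters of several embryos whose sex was not determined, with the mesenchyme and all other cells of the tissue. In such bulk RNA, fewer epithelial cells and less RNA per epithelial cell cannot be told apart. P-values rest only on these 2 pairs of pools. The spread they use is drawn partly from the gene and partly from all genes tested, so a printed SD does not fix its p-value.

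At this stage the ureteric epithelium is an unstratified tube within a loose mesenchyme. Claudins span the membrane in tight junctions and set how tightly, and for which ions, the space between epithelial cells is sealed. Keratins form the intermediate filaments of epithelial cells as pairs of an acidic type I and a basic type II chain. Simple epithelia use KRT8 with KRT18 and KRT19, basal cells of stratified epithelia use KRT5 with KRT14, and other pairs build hair and nail. Uroplakins are membrane proteins of the superficial cells of mature urothelium, where UPK1A pairs with UPK2 and UPK1B with UPK3A or UPK3B in plaques that line the lumen. WNT signals that the epithelium sends to the mesenchyme are needed for ureter development, and the comparison asks which transcripts respond when their secretion is blocked for a short time.

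Levels below are normalized intensities of a probe in each pool, on a linear scale, and ratios are log2 values of IWP-2 over control. A level depends on the probe as well as on the transcript, so the levels of different genes do not give their order of expression, and the sums over a marker list given below serve only to compare pools. A gene counted as detected if most of its spots were well above the local background in the treated channel of both arrays or in the control channel of both. Across the 4 channels, between 68.6% and 70.7% of all spots were well above background, and 0 spots were saturated.

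Of the 75 members, 48 were detected (64%), beside 67.2% of all genes on the array. These were 16 of 22 claudins, 15 of 26 type I keratins, 12 of 22 type II keratins and all 5 uroplakins. The 27 members that were not detected comprised *Cldn2*, *Cldn16*, *Cldn18*, *Cldn20*, *Cldn22* and *Cldn24*, of which *Cldn2* and *Cldn16* encode claudins that form ion pores in kidney tubules. Among the type I keratins, *Krt12*, *Krt17*, *Krt24*, *Krt25*, *Krt26*, *Krt27*, *Krt32*, *Krt34*, *Krt35*, *Krt39* and *Krt40* were not detected. Of these, *Krt12* encodes the keratin of the cornea, and *Krt25* to *Krt27*, *Krt32*, *Krt34* and *Krt35* are hair follicle keratins. Among the type II keratins, *Krt2*, *Krt4*, *Krt71*, *Krt72*, *Krt74*, *Krt76*, *Krt77*, *Krt78*, *Krt82* and *Krt83* were not detected. *Krt4* encodes the partner of KRT13 in stratified mucosa. The highest level of these 27 genes in any pool was 125, for *Cldn2*, and in 20 of them no spot of any probe was well above background on either array. For these genes there is no ratio to report.

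**Figure D1:**
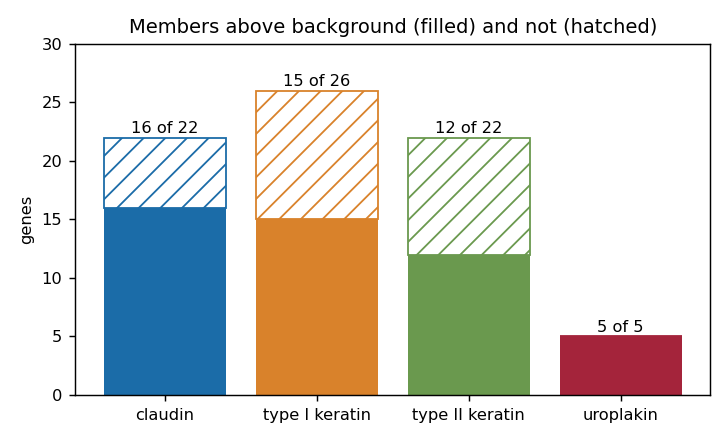
Number of genes per family on the array (y axis, genes), split into those detected above background (filled) and those not detected (hatched). All 5 uroplakins were above background, beside 16 of 22 claudins, 15 of 26 type I keratins and 12 of 22 type II keratins.

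Only 1 of the 48 detected members passed a false discovery rate (FDR) of 0.05 in limma, the type II keratin *Krt84*, which fell, and 0 members rose. At this threshold 1.15% of the 20119 genes tested were lower and 0.611% were higher in the whole table. At an unadjusted p under 0.05 the counts were 2 lower members (*Krt84* and *Upk3a*) and 4 higher members (*Cldn8*, *Cldn3*, *Krt15* and *Cldn11*), beside 4.74% lower and 8.67% higher of all genes. Both lower members entered the test through the control channel, as in the treated channel they were well above background on 1 array only. Without the filter on dim probes, the counts at this p were 1 lower and 4 higher. A second rule, after the study's methods and without a test, asked for a change of 2-fold or more that ran the same way on each array, in genes whose brighter channel reached a processed intensity of 100. Of the 23 members bright enough for it, 0 passed in either direction. Among all 14549 genes that bright, 0.344% passed as lower and 0.0756% as higher. *Krt84* was too dim for this rule, with processed intensities of 73.2 and 33.2 in the control channel, its brighter one, of arrays 1 and 2.

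*Krt84* encodes a keratin of the hard type, known from nail and the filiform papillae of the tongue. Its probe lies at chr15:101355458-101355517 on the minus strand (mm9) and gave an intensity of 169 in the treated and 456 in the control pool of array 1. On array 2 it gave 113 in the treated and 265 in the control pool. Both treated pools thus lay below both control pools. The log2 ratio was -1.43 on array 1 and -1.23 on array 2, with a mean of -1.33 ± 0.14 (SD, n = 2) and an FDR of 0.00434 by limma with Benjamini-Hochberg adjustment. Its signal was close to background. The probe was well above background in the control channel on both arrays, but in the treated channel on array 1 only, where all 4 spots were, against a share of 0.5 of the spots on array 2. With median centring in place of loess the mean was -1.28 and the FDR 0.0626, and in a separate-channel fit with a dye term the FDR was 0.344. On the deposited fold changes the mean was -1.85 and the FDR 0.218. Under these settings *Krt84* was not called, while on the processed intensities it was, with a mean of -2.28.

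The genes that flank *Krt84* in the type II keratin cluster did not pass the test. By the probe positions (mm9), the members on either side are *Krt85* and *Krt82*, and *Krt82* was not detected. *Krt85*, another hard keratin, had probes that differed. The probe next to *Krt84*, at chr15:101346117-101346176, gave 1257 (treated) and 1397 (control) on array 1 and 1076 and 1150 on array 2, with log2 ratios of -0.15 and -0.10. The brightest probe of this gene, for which the files give no position, had -0.05 and 0.18, and the third was not detected. *Krt86*, the next member beyond *Krt85*, had a level of 205 in the treated and 211 in the control pool of array 1, and of 246 and 317 on array 2, so the treated pool was the lower one on both. Its mean log2 ratio was -0.20 ± 0.23 (FDR 0.582). *Krt81* had log2 ratios of -0.14 and 0.10 on arrays 1 and 2, and *Krt75* of 0.17 and 0.16. Hard keratin genes are close copies of each other, and whether their probes share target RNA was not tested.

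RefSeq promoter windows, which run from 250 bases before to 50 bases after the start of a gene, were available for 55 of the 75 members. They were searched on both strands for 5 motifs, and the share of all 32851 windows in the table that hold each is given with it. The letters CTTTGAA stand for a core of the TCF/LEF factors that act in WNT signaling and were in 5.14% of windows. A motif of grainyhead-like factors, AACCNGTT, was in 2.09% of them. For forkhead factors the letters were TGTTTAC, found in 3.65% of windows. The motif AGATAA, for factors of the GATA family, was in 11.2%. The promoter element TATAAA, known as the TATA box, was in 13.6%. The window of *Krt84* is shown because it was the only member called. It is given 5′ to 3′ on the strand of the gene (chr15:101532771-101533070, minus strand, GRCm38.p6), with a motif match in capitals.
Krt84: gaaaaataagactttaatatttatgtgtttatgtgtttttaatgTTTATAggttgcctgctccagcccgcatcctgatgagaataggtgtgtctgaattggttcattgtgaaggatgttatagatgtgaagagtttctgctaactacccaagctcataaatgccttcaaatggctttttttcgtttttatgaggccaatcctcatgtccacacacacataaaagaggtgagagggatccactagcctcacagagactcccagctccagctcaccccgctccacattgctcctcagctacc
The single match is the TATA box motif on the opposite strand, and its first base lies 206 bases before the start. None of the other 4 motifs is in this window.

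**Figure D2:**
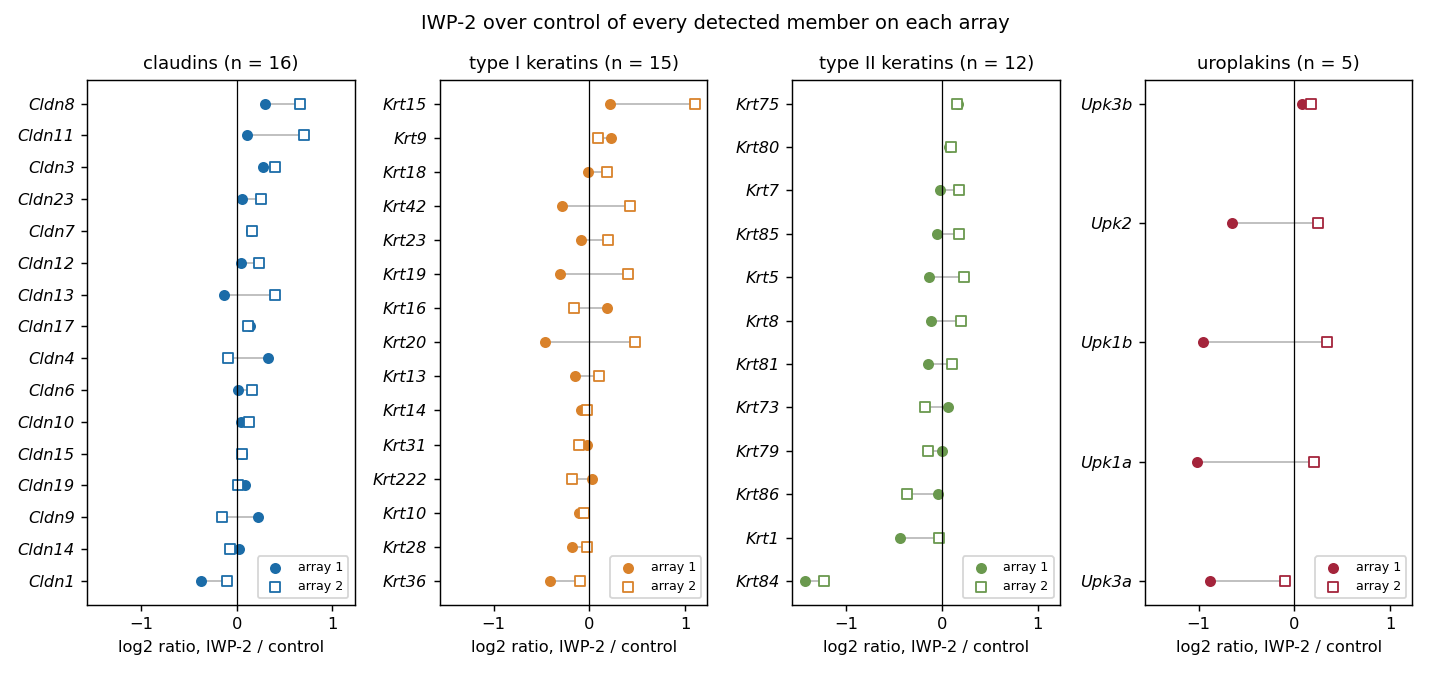
Log2 ratio of IWP-2 over control (x axis) of each detected member, in 4 panels by family and ordered by the mean of both arrays. Filled circles are array 1, open squares array 2, and the grey line joins both. *Krt84* lies far left on both arrays, most claudins lie right of 0 on both, and 4 of 5 uroplakins lie left of 0 on array 1, whereas 3 of these 4 lie right of it on array 2.

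Of 16 detected claudins, 11 had a higher signal in the treated pool on both arrays, 1 (*Cldn1*) had a lower signal on both and 4 differed in sign between arrays. Of all genes tested, 28.5% were higher and 27.5% were lower on both. Among the 11 claudins, *Cldn10* and *Cldn17* were kept only through the treated channel, a route that favours a higher ratio. In the control channel most of their spots were well above background on array 2 only. The median log2 ratio of the claudins was 0.12 in the mean, with 0.07 on array 1 and 0.14 on array 2, beside medians of -0.01 and 0.02 over all genes. None passed FDR 0.05. With median centring, which moved the median of all genes to 0.11 on array 1 and -0.14 on array 2, the count of claudins higher on both arrays was 8 and the median 0.11. On the deposited fold changes, which are rounded to 1 decimal, the count was 5 and the median 0.13, beside 16.9% of all genes higher on both.

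*Cldn3*, *Cldn4*, *Cldn7* and *Cldn8*, which encode claudins of the collecting duct lineage, were all detected. *Cldn8* had a level of 51269 in the treated and 41922 in the control pool of array 1, and of 75742 and 48022 on array 2. Both treated pools lay above both control pools. The mean log2 ratio was 0.47 ± 0.26 (SD, n = 2), with an unadjusted p of 0.00667 in limma and an FDR of 0.139. *Cldn3* had levels of 40584 and 33653 in the treated and control pools of array 1, and of 39131 and 29659 on array 2, again without overlap. Its mean was 0.33 ± 0.09 (FDR 0.205).

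*Cldn11*, which encodes the claudin of myelin and of the testis barrier, had levels of 9136 (treated) and 8459 (control) on array 1 and of 12328 and 7584 on array 2. The treated pools lay above the control pools, yet the ratios differed, with 0.11 on array 1 and 0.70 on array 2 (FDR 0.310). *Cldn7*, at 24940 and 22559 on array 1 and 24526 and 22022 on array 2, had ratios of 0.14 and 0.16. *Cldn6*, which encodes a claudin of embryonic epithelia, had levels of 56055 and 55375 on array 1 and 61621 and 55345 on array 2, so that array 1 showed next to no difference.

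*Cldn12* (0.05 and 0.23) and *Cldn23* (0.06 and 0.26) had higher ratios on both arrays, and neither passed the test (FDR 0.739 and 0.676). *Cldn4* differed in sign between arrays, with 0.33 and -0.10, and so did *Cldn9*, with 0.23 and -0.15. A second probe of *Cldn4* that was also detected gave 0.08 and 0.29, so that probes of this gene disagreed on array 2. *Cldn1*, whose product seals the epidermal barrier, was at 298 (treated) and 386 (control) on array 1 and at 349 and 374 on array 2. It was the only claudin lower on both, by -0.24 ± 0.19 in the mean (FDR 0.451). The other detected claudins, *Cldn10*, *Cldn13*, *Cldn14*, *Cldn15*, *Cldn17* and *Cldn19*, had mean log2 ratios between -0.02 (*Cldn14*) and 0.13 (*Cldn13*).

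The partners of claudins in the tight junction showed values of the same kind. All 11 genes of this list were detected, and 0 passed FDR 0.05. In 8 of them the treated pool was higher on both arrays, beside 28.5% of all genes tested. Their median log2 ratio was 0.23. *Tjp3*, which encodes a scaffold protein under the junction, had 0.37 and 0.49, and *Cgn*, encoding cingulin, 0.28 and 0.46. Of the 12 epithelial regulators, 7 were higher on both arrays with a median of 0.17, and of 8 detected desmosome genes 2 were higher and 2 lower on both, with a median of -0.0011.

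Among the markers of cell types, *Kdr* and *Tbx18* passed FDR 0.05 and no other gene did. The counts of markers below stand beside 28.5% of all genes tested that were higher and 27.5% that were lower on both arrays. All 7 endothelial markers were higher in the treated pool on both arrays with a median of 0.46, and *Kdr* among them rose by 0.74 past FDR 0.05. Their summed level was 74409 and 69048 in the treated and 56264 and 42599 in the control pools. The nerve and glia list (5 of 5 detected, 4 higher on both, median 0.36) summed to 176785 and 184062 in the treated and 125088 and 138215 in the control pools. The blood list (4 of 4 detected, 3 higher on both, median 0.32) summed to 260269 and 194035 in the treated and 218543 and 139287 in the control pools.

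The ureteric mesenchyme list was detected in full, with 4 of 6 genes lower on both arrays and a median of -0.11. It summed to 257347 and 287509 in the treated and 291754 and 277836 in the control pools, and *Tbx18*, its transcription factor, fell past FDR 0.05, with a mean of -1.03. The epithelium list (8 of 8 detected, 4 higher and 1 lower on both, median 0.16), which includes *Krt8* and *Krt18*, summed to 284117 and 356092 in the treated and 288139 and 296341 in the control pools. Of 5 mesothelial genes on the array 4 were detected, and *Bnc1* was not. This list had 2 genes higher and 1 (*Wt1*) lower on both arrays, with a median of 0.16. It summed to 12971 and 9077 in the treated and 14000.5 and 15481 in the control pools. Most of each sum was *Wt1* alone, at 10013 and 5089 in the treated and 11042 and 12476 in the control pools. The list of surface ectoderm and basal stratified epithelium, which includes *Krt5*, *Krt14* and *Krt15*, was detected in full with 1 of 4 genes higher and 1 lower on both, a median of -0.00186 and sums of 4073 and 5216 in the treated and 3804 and 4409 in the control pools. The part of these cell types in the ratios of the members was not tested.

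**Figure D3:**
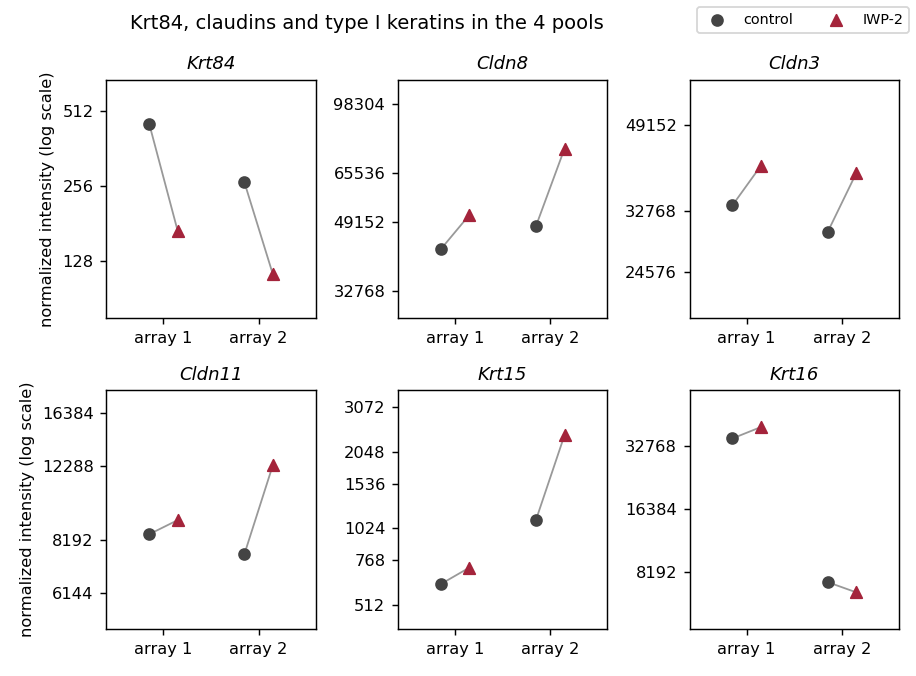
Normalized intensity (y axis, log scale, its range differing between panels) of 6 members in the control (grey circles) and IWP-2-treated (red triangles) pool of each array (x axis), with 1 point per pool. Treated pools lie below controls for *Krt84* and above them for *Cldn8*, *Cldn3*, *Cldn11* and *Krt15* on both arrays, while *Krt16* differs between arrays rather than between treatments.

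The simple keratins were well above background in all 4 pools and did not pass the test. *Krt8* had levels of 78202 (treated) and 84749 (control) on array 1 and of 96513 and 84163 on array 2. *Krt18*, encoding its partner chain, had 74162 and 74895 on array 1 and 90167 and 79287 on array 2. The log2 ratios of *Krt8* were -0.12 and 0.20, and those of *Krt18* were -0.01 and 0.19, so both genes differed in sign between arrays. A dimmer detected probe of *Krt8* gave -0.05 and 0.04. *Krt7*, a keratin of ducts and urothelium, had 2706 and 2742 on array 1 and 4119 and 3633 on array 2, with ratios of -0.02 and 0.18.

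Of the keratins known from basal cells, *Krt5*, *Krt14* and *Krt15* were detected and *Krt17* was not. *Krt5* had levels of 161 (treated) and 177 (control) on array 1 and of 231 and 197 on array 2, and *Krt14* of 139, 148, 135 and 136 in the same order. Their ratios were -0.14 and 0.23 for *Krt5* and -0.08 and -0.02 for *Krt14*. *Krt13*, a keratin of intermediate cells in stratified mucosa and urothelium, had 859 and 955 on array 1 and 1256 and 1173 on array 2, with ratios of -0.15 and 0.10.

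*Krt15*, known from basal and progenitor cells, had the highest mean log2 ratio of all detected members. It was at 718 (treated) and 619 (control) on array 1 and at 2380 and 1105 on array 2. The treated pool was higher on both arrays, but the treated pool of array 1 lay below the control pool of array 2. Its ratio was 0.22 on array 1 and 1.11 on array 2, with a mean of 0.66 ± 0.63 and an FDR of 0.208. The mean was thus about as large as the spread between arrays.

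Over the whole type I family the median log2 ratio was -0.09 on array 1 and 0.09 on array 2. In this family 5 of 15 detected genes were lower on both arrays (*Krt36*, *Krt28*, *Krt10*, *Krt31* and *Krt14*). Another 2 (*Krt15* and *Krt9*) were higher on both and 8 differed in sign. Of all genes tested, 27.5% were lower on both, 28.5% were higher on both and 44.0% differed in sign. *Krt36* and *Krt28* were kept only through the control channel, a route that favours a lower ratio. In the treated channel most of their spots were well above background on array 2 only. Apart from *Krt15*, the mean ratios of the detected genes of this family ranged from -0.26 (*Krt36*, a hair keratin) to 0.16 (*Krt9*). *Krt10*, a keratin of the differentiated epidermis, was at 5854 and 6318 on array 1 and 5955 and 6192 on array 2. A dimmer detected probe of *Krt10* gave -0.14 and 0.00 where the probe used gave -0.11 and -0.06. *Krt222* had 0.02 and -0.19.

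The type II family had medians of -0.05 on array 1 and 0.10 on array 2. Besides *Krt84*, *Krt1* and *Krt86* were lower on both arrays, *Krt75* and *Krt80* were higher on both, and 7 of 12 detected genes differed in sign. Over all genes tested the shares were 27.5% lower on both, 28.5% higher on both and 44.0% of differing sign. *Krt1*, encoding the type II partner of KRT10, was at 778 (treated) and 1052 (control) on array 1 and at 875 and 893 on array 2. Its mean was -0.23 ± 0.29 (FDR 0.547), with -0.44 on array 1 and -0.03 on array 2. *Krt80* had 0.08 and 0.09, *Krt73* 0.07 and -0.18, and *Krt79* 0.01 and -0.15.

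*Krt16* stood apart for a difference between arrays. Its levels were 40606 (treated) and 35779 (control) on array 1 but only 6514 and 7295 on array 2, so that both pools of array 1 were far above both pools of array 2. The mean level differed 5.53-fold between arrays, and 0.0547% of all genes tested differed as much in either direction. The treatment ratios were small, with 0.18 and -0.16. *Krt16* encodes a keratin that stratified epithelia make on stress and injury. Since each array had its own pools, a difference of the arrays and of the pools cannot be told apart.

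The uroplakins were detected without exception, but their response was not the same on both arrays. On array 1, 4 of the 5 had a lower signal in the treated pool, and the median log2 ratio of the family was -0.88. This is the ratio of *Upk3a*, whose treated signal on array 1 was not well above background, and on processed intensities the median was -1.01. On array 2 the median was 0.21 and only *Upk3a* was lower, by less than on array 1. None passed FDR 0.05, and the family median of the mean ratios, -0.30, rests on array 1.

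*Upk1a*, encoding a tetraspanin of the plaque, was at 1949 (treated) and 3955 (control) on array 1 and at 5921 and 5136 on array 2. *Upk2*, encoding its partner, was at 670 and 1054 on array 1 and at 2309 and 1947 on array 2. For both genes the 2 pools of array 1 lay below the 2 pools of array 2, and of the 4 pools the lowest was the treated one of array 1 and the highest the treated one of array 2. The log2 ratios were -1.02 and 0.21 for *Upk1a* and -0.65 and 0.25 for *Upk2*, with an FDR of 0.658 and 0.841.

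*Upk1b*, encoding the other tetraspanin, followed the same order. It was at 177 (treated) and 343 (control) on array 1 and at 663 and 522 on array 2, with ratios of -0.95 and 0.34 (FDR 0.808). *Upk3a*, whose product spans the membrane once and pairs with UPK1B, was at 92.2 and 170 on array 1 and at 209 and 223 on array 2. Its ratios were -0.88 and -0.10, with a mean of -0.49 ± 0.55, an unadjusted p of 0.0337 and an FDR of 0.311 in limma. In the treated pool of array 1 no spot of its probe was well above background, while all were in the other 3 pools.

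*Upk3b*, which is also a marker of mesothelium, did not share this pattern. It was at 180 (treated) and 171 (control) on array 1 and at 253 and 224 on array 2. The treated pool was slightly higher on both, with ratios of 0.08 and 0.18 and a mean of 0.13 ± 0.07 (FDR 0.755). Its pools of array 1 were below those of array 2 as well.

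**Figure D4:**
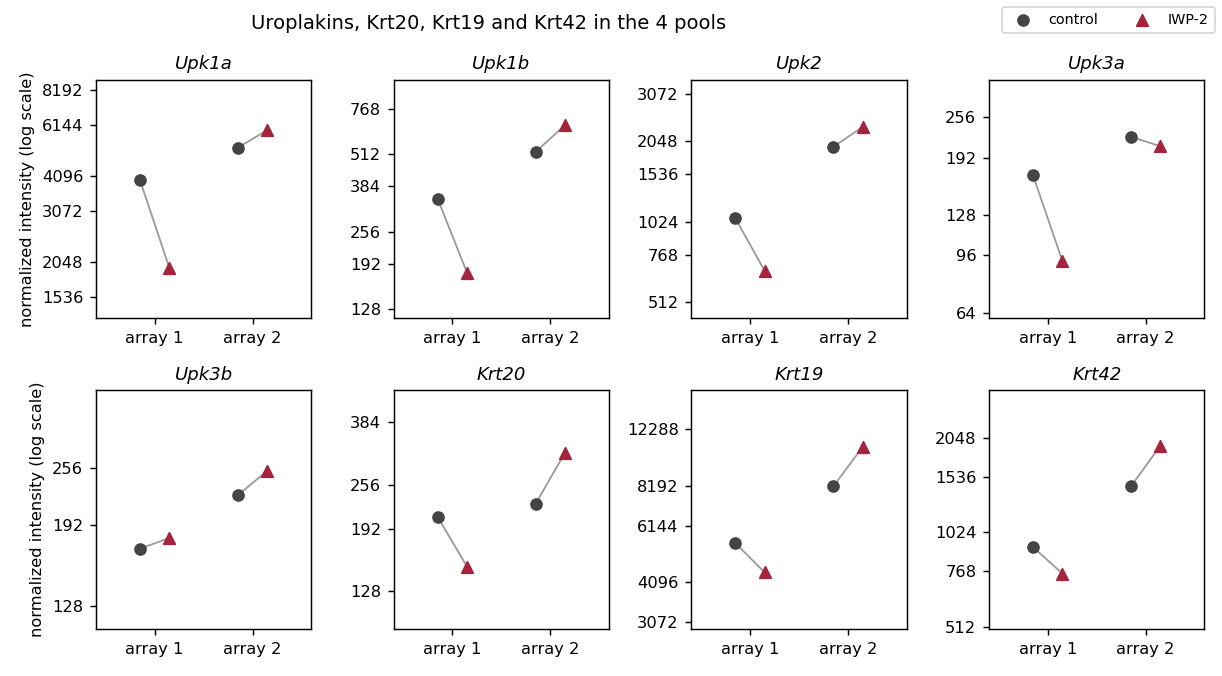
Normalized intensity (y axis, log scale, its range differing between panels) of the 5 uroplakins, *Krt20*, *Krt19* and *Krt42* in the control (grey circles) and IWP-2-treated (red triangles) pool of each array (x axis), with 1 point per pool. For all but *Upk3b* the treated pool of array 1 is the lowest of the 4, and for all but *Upk3a* the treated pool of array 2 is the highest.

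The same order of pools was seen in keratins of both types. In *Krt13*, *Krt18*, *Krt5*, *Krt7* and *Krt81* the ratios on each array were smaller than in the 3 type I keratins given next. *Krt8* and *Krt85* also had their lowest level in the treated pool of array 1 and their highest in that of array 2. *Krt20*, the keratin of superficial urothelial cells, was at 150 (treated) and 208 (control) on array 1 and at 315 and 226 on array 2. *Krt19*, which urothelium expresses in all layers, was at 4391 and 5423 on array 1 and at 10822 and 8146 on array 2. *Krt42*, whose other probe was not detected, was at 756 and 917 on array 1 and at 1928 and 1433 on array 2. In each of them the treated pool of array 1 was the lowest of the 4 and that of array 2 the highest. The ratios were -0.47 and 0.48 for *Krt20*, -0.30 and 0.41 for *Krt19* and -0.28 and 0.43 for *Krt42*.

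Differences of this size between arrays were uncommon. The ratios of *Upk1b* differed by 1.30 between arrays, a gap that 0.214% of all genes tested reached, and those of *Upk1a* by 1.23 (0.258%). A gap over 0.5 was found in 10 of 48 detected members (20.8%) and in 6.22% of all genes. These were *Upk1b*, *Upk1a*, *Krt20*, *Upk2*, *Krt15*, *Upk3a*, *Krt19*, *Krt42*, *Cldn11* and *Cldn13*. How often the directions given next held among all genes with such a gap was not counted. In all 10 the ratio was higher on array 2, and in 9, all but *Cldn13*, the mean level was higher on array 2 too. Urothelial genes are known to be expressed in the same cells, so these are not independent counts.

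Of the epithelial regulators, *Grhl3* and *Foxa1*, named here after their values were seen, had the same order. It was also seen in the desmosome genes *Dsp* (-0.02 and 0.36) and *Dsg2* (-0.08 and 0.01). *Grhl3*, encoding a grainyhead-like factor of superficial urothelial cells, was at 1114 (treated) and 2493 (control) on array 1 and at 4870 and 3461 on array 2. *Foxa1*, encoding a forkhead factor of the urothelium, was at 6597 and 9306 on array 1 and at 14054 and 11197 on array 2. In contrast, 7 of the 12 regulators, such as *Klf5* (0.28 and 0.49), *Elf3* (0.33 and 0.35) and *Gata3* (0.13 and 0.51), were higher in the treated pool on both arrays. Of the 5 that differed in sign, *Ovol2* (0.33 and -0.24) and *Trp63* (0.09 and -0.27) turned the other way from *Grhl3* and *Foxa1*. The last of the 5, *Grhl2*, had -0.02 and 0.28. No gene of this list passed FDR 0.05.

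Because the dyes were swapped, a ratio that turns its sign between arrays has the same dye ahead on both. In *Upk1a*, *Upk1b*, *Upk2*, *Krt19*, *Krt20* and *Krt42* this was AlexaFluor555. When changes that followed the dye were fitted in limma in the same way, 0 genes passed FDR 0.05. An unadjusted p under 0.05 was reached by 438 of the 20119 genes tested. Of the 48 detected members 5 reached it (*Krt20*, *Krt19*, *Krt42*, *Upk1b* and *Upk2*), all among the genes just named for their turned sign. For these genes an effect of the dye and a difference between the pairs of pools cannot be told apart.

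The promoter windows of *Upk1a*, *Upk3a* and *Krt20* are shown as examples from the genes whose ratios differed between arrays. They read 5′ to 3′ on the strand of each gene, with motif matches in capitals, at chr7:30612685-30612984, minus strand, chr15:85016891-85017190, plus strand and chr11:99438104-99438403, minus strand (GRCm38.p6).
Upk1a: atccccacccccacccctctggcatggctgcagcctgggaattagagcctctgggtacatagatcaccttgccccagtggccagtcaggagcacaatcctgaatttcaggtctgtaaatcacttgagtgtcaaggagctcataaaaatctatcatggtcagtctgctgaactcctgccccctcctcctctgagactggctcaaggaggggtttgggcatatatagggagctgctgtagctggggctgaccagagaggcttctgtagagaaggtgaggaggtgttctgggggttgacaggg
Upk3a: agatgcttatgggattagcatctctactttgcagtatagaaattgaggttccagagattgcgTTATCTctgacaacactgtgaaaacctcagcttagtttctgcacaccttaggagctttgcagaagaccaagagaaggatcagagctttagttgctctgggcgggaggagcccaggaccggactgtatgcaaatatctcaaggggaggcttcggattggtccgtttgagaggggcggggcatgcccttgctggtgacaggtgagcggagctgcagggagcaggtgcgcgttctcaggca
Krt20: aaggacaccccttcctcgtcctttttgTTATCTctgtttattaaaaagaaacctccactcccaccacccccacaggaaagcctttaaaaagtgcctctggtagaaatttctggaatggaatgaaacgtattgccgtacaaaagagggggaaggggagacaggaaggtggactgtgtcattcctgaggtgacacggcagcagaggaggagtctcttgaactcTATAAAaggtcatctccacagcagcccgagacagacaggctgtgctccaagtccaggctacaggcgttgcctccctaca
The window of *Upk1a* holds none of the 5 motifs. That of *Upk3a* holds the GATA motif on the opposite strand, with its first base 188 bases before the start. That of *Krt20* holds the GATA motif on the opposite strand at 223 bases and the TATA box motif on the gene's own strand at 29 bases before the start. The TCF/LEF and grainyhead-like motifs are in none of the 3 windows.

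**Figure D5:**
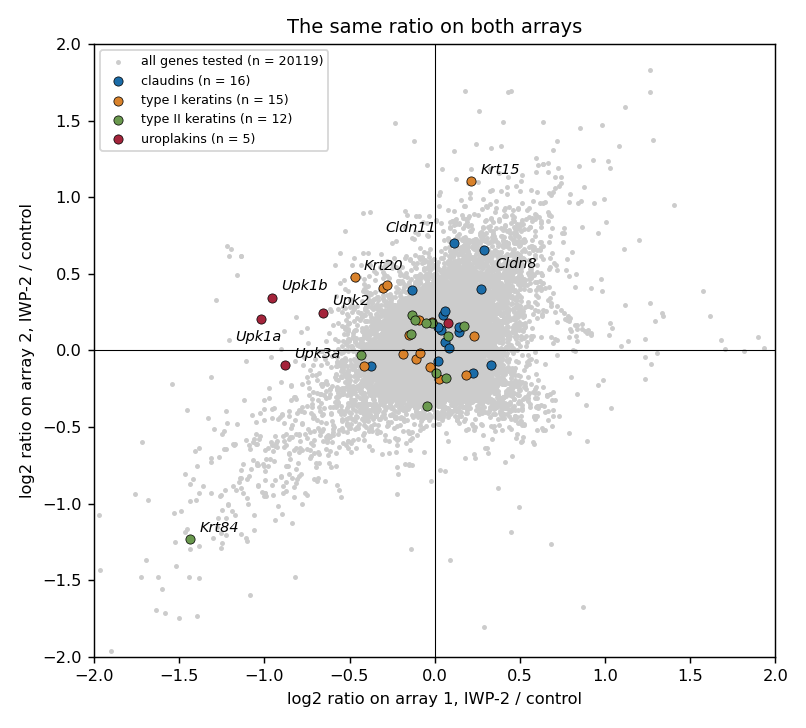
Log2 ratio of IWP-2 over control on array 1 (x axis) against that on array 2 (y axis) for all 20119 genes tested (grey) and the 48 detected members, coloured by family. *Krt84* lies at the lower left with the genes lower on both arrays, the uroplakins other than *Upk3b* lie left of the main cloud near 0 on the y axis, and 30 genes lie outside the axes.

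Across the 48 detected members, Pearson's r between the ratios of array 1 and array 2 was 0.34 and Spearman's rho -0.0013, given as a description across genes that share the same pools. Over all 20119 genes r was 0.47 and rho 0.25. By both measures the members were less alike between arrays than the whole table, and this difference was not tested.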

How the data were processed

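Ureters were profiled on 2 dye-swapped two-colour Agilent arrays. Per the file headers, the deposited intensity values of each spot and its background come from Feature Extraction 12.2.0.7 (the submitters' notes name 10.7.3.1), with a processed intensity corrected for background and dye, and the probe positions are those of mm9. Another deposited unit, the signed fold change of the series table, rounded to 1 decimal, served as an alternative.

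With limma 3.58.1 in R 4.3.3, mean intensities were background-corrected (normexp, offset 50) and loess-normalized within arrays. Outlier spots were dropped and the 4 spots of a probe averaged. Probes were kept with over a share of 0.5 of spots well above background in one condition on both arrays, and the brightest kept probe stood for a gene. Ratios were fitted with lmFit and eBayes, the dye swap as a sign, leaving 1 residual degree of freedom, and adjusted (Benjamini-Hochberg) over 20119 genes. The number of arrays limits the precision. Levels were quantile-normalized between arrays and include the offset. Keratin type follows the chromosome, except that *Krt18*, on chromosome 15, is type I by name.

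Named genes were every uroplakin, every call, the urothelial keratins, and per family the 10 brightest and the 5 largest alike ratios in each direction. Members and lists were chosen with earlier results of these data known. File names of genes were kept, and 74 of 75 are RefSeq symbols. Both arrays shared a slide and a scan. The procedure was tested on simulated data. Alternatives concerned background, normalization, filter, probes, outliers, prior, dye term, thresholds and each array.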

Additional observations from a re-analysis of the deposited data

How the results depend on the processing

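*Krt84* stayed lower past FDR 0.05 without background correction, on processed intensities (mean log2 ratio -2.28), without the filter on dim probes, with the mean of probes, with outlier spots, with a trended robust prior and at FDR 0.01. With median centring, and in the separate-channel fit with a dye term, 0 members were lower. On the deposited fold changes 2 members were lower and 2 higher, namely *Krt10*, *Krt31*, *Cldn6* and *Cldn7*. Their rounded values were identical on both arrays, which leaves an SD of 0. *Krt84* was not called there. At an unadjusted p under 0.05, 2 members were lower and 4 higher. Under the fold and intensity filter, the number of lower members without 1 array was 0 to 1 and that of higher members 0 to 1.

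Over all genes the calls varied more, from 232 lower and 123 higher to 34 and 6 with median centring, 0 and 0 with the dye term, 98 and 21 without the filter, 278 and 224 with the mean of probes and 290 and 226 with the trended prior. On the deposited fold changes they were 1322 and 1038.

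Leaving out an array, the median log2 ratio ran from 0.072 to 0.14 in claudins, -0.09 to 0.09 in type I keratins, -0.05 to 0.10 in type II keratins and -0.88 to 0.21 in uroplakins. The cause was not tested. The test was itself paired, as the ratio within an array pairs the pools with the same number, and no further block is left to fit. No array could be left out of the test, as 1 array leaves no residual degree of freedom. Members near background, such as *Krt84* and *Upk3a*, have ratios that the offset pulls toward 0.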
